A study of Homo sapiens with 4 samples.

Results

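The genes described here encode the enzymes that place methyl groups on histone lysines and the JmjC-domain enzymes that remove them, together with the core subunits of the complexes in which they act. They were chosen as 46 named genes of 3 kinds, namely JmjC-family demethylases, SET-domain methyltransferases with DOT1L, and core subunits of the COMPASS and PRC2 complexes. Each was measured through the probe sets whose platform annotation gave that symbol and no other. All 46 genes were found, through 142 probe sets, among 19775 genes named in this way.

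Transcript levels were compared between SH-SY5Y cells that had received an siRNA against LSD1 (siLSD1, 2 arrays) and SH-SY5Y cells that had received a control siRNA (siControl, 2 arrays). SH-SY5Y is a neuron-like human neuroblastoma line, so that all arrays came from 1 cell line. The submitters' design text gives a separate transfection for each array of a group. P-values therefore rest on the spread between transfections together with that between arrays. In limma, the variance of each gene was also drawn towards that of the other genes tested. Neither the siRNA sequences nor the time after transfection is given in the sources used here.

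Histone lysine methylation is written by methyltransferases, most of which share a catalytic SET domain, and is erased by demethylases of 2 unrelated chemistries. LSD1, encoded by KDM1A, oxidises the methyl group with a flavin cofactor and acts mainly on histone H3 lysine 4 (H3K4). The JmjC enzymes use iron and 2-oxoglutarate and, unlike LSD1, can also remove the trimethyl mark. Methylation of H3K4, H3K36 and H3K79 is found at active genes, whereas methylation of H3K9 and H3K27 is found at silent ones. The comparison addressed here is whether the transcripts of these other writers and erasers differed in level when LSD1 was knocked down.

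All levels below are log2 signals after quantile normalization, and all fold changes are siLSD1 over siControl. KDM1A, the target of the siRNA, had a log2 signal of 8.40 and 8.54 on the siLSD1 arrays, against 9.79 and 9.78 on the siControl arrays. Its mean was 2.50-fold lower (log2 fold change -1.32, 95% interval -1.69 to -0.95), with no overlap between the groups. In limma its adjusted p over all 11865 genes tested was 0.39, so that even the target did not pass the threshold of 0.05 in this design.

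The array siControl replicate 1 stood apart. Across the genes tested, it correlated at 0.956 to 0.960 with the other arrays, while the best correlation of each of the other 3 was 0.979 to 0.980. The array siLSD1 replicate 2 had an 18S ribosomal RNA control signal of 10.3, against 5.24 to 5.33 on the other arrays. Its 3′ minus 5′ difference of the ACTB control probe sets was 1.16, against 0.54 to 0.71 on the other arrays. That of the GAPDH control probe sets was 0.30, against -0.030 to 0.0014. Of the noradrenergic neuroblastoma markers that could be named, 8 of 9 were above the filter level of 4.12, and TH, the enzyme that starts catecholamine synthesis, was below it on all 4 arrays. Of the Schwann and glial markers 0 of 3 were above that level, as were 1 of 4 blood markers (HBB) and 6 of 6 fibroblast markers. The summed linear signal of the fibroblast markers was 858 to 989 on the siLSD1 arrays and 624 to 864 on the siControl arrays, and its part in the results was not tested.

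None of the 46 genes passed the test over all genes, and their mean differences ran from -0.29 to 1.22 on the log2 scale. All 46 were bright enough to be tested, and 0 of them passed an adjusted p under 0.05 in limma (smallest adjusted p 0.9996), as did 0% of all genes tested. The mean was higher in siLSD1 cells for 27 and lower for 19. The median over the 46 was 0.052 on the log2 scale, against 0.0068 over all genes tested. Under median centring, which lifted the median of all genes tested to 0.18, that of the 46 was 0.22, and 14 of the 19 lower genes turned positive, all but KDM3A, KDM7A, KDM8, SETD1B and DPY30. The median size of a difference was 0.20, against 0.17 over all genes, and the 95% intervals reached 0.54 to either side at the median. In a bulk sample, fewer cells of a kind and less RNA per cell cannot be told apart.

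At an unadjusted p under 0.05 in limma, 4 of the 46 genes (8.70%) differed, against 3.45% of all genes tested. All 4 were higher and 0 lower, where 2.29% of all genes tested were higher and 1.15% lower at this level. They were KMT2C and KMT2A, which methylate H3K4, KDM5A, which demethylates it, and EED, a subunit of PRC2. The siLSD1 and siControl values did not overlap for 17 of the 46 genes (37.0%), against 31.7% of all genes. Of these, 11 were higher and 6 lower in siLSD1 cells, where 16.6% of all genes were higher without overlap and 15.1% lower. The difference between the group means exceeded the gap between arrays of either group for 8 genes (17.4%), against 18.8% of all genes. By these counts the 46 genes lay near the background, apart from the small number at an unadjusted p under 0.05.

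**Figure D1:**
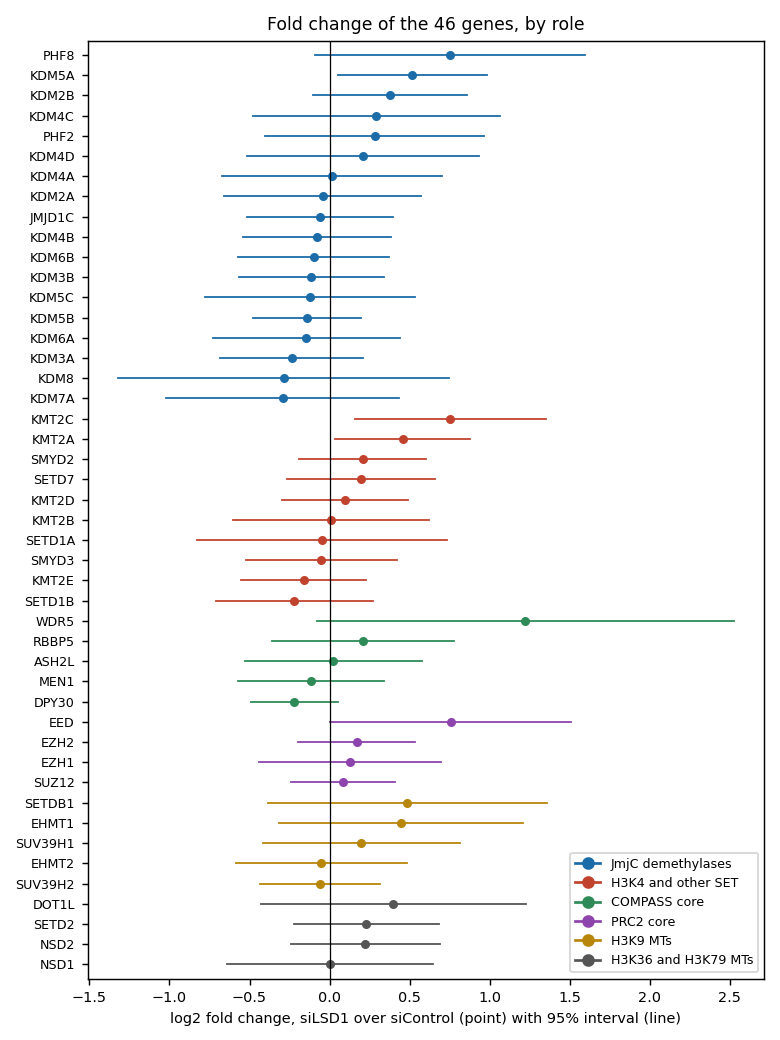
Log2 fold change of each of the 46 genes (point, horizontal axis, siLSD1 over siControl) with its 95% interval from limma (line), ordered within each role. The intervals of KDM5A, KMT2C, KMT2A and EED lie above 0, that of EED only just, and every other interval includes 0.

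The promoters of these 4 genes are shown because they were the members with the smallest p, and all 4 had the same direction. The sequences are the 250 bases before the annotated start in RefSeq (GRCh38.p14), read 5′ to 3′ on the gene's strand. Capitals mark the GC box GGGCGG on either strand (GGGCGG or CCGCCC), with overlapping matches joined. The windows lie at chr12:389321-389570 on the minus strand for KDM5A, chr11:118436242-118436491 on the plus strand for KMT2A, chr7:152436004-152436253 on the minus strand for KMT2C and chr11:86244503-86244752 on the plus strand for EED.
KDM5A: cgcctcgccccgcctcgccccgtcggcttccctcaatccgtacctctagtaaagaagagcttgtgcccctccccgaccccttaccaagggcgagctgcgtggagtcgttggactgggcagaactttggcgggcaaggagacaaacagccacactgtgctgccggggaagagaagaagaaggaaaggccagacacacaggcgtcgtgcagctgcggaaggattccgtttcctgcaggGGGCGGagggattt
KMT2A: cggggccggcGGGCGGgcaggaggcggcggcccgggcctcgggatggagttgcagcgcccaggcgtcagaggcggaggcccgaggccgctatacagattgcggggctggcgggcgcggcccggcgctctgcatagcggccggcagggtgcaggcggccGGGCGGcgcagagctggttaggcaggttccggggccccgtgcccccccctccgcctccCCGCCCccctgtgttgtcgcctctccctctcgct
KMT2C: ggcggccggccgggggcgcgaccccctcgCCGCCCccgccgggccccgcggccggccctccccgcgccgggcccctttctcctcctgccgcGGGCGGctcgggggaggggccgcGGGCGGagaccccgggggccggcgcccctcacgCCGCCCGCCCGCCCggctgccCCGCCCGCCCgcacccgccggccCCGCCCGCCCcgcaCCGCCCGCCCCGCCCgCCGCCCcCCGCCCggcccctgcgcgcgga
EED: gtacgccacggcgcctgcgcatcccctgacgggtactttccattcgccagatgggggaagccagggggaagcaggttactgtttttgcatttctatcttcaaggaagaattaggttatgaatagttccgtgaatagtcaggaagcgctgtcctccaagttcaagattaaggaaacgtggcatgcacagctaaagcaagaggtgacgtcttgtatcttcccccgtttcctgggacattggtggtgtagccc

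The 4 windows differed widely in composition. The KMT2C window was 92% G and C with 15 GC boxes, overlapping ones counted singly, the KMT2A window 78.4% with 3, and the KDM5A window 62% with 1. The EED window was 51.2% G and C with 0 GC boxes and 1 CCAAT box. RefSeq held promoters for 42 of the 46 genes, with 64 start sites in all, so that some windows share a gene. The GC box was present in 71.9% of these 64 windows, against 62.9% of the windows of genes tested and 42.6% of all promoters of the same length. The E-box CACGTG, its own reverse complement, was present in 15.6%, against 8.32% and 6.34%. The CCAAT box (CCAAT or ATTGG) was present in 34.4%, against 33.3% and 32.0%, and the E-box CAGGTG (or CACCTG) in 15.6%, against 15.5% and 17.5%. The TATA box TATAAA (or TTTATA) was found in 0 of the 64 windows, against 5.69% and 10.7%. A match describes the letters of the window only.

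The JmjC demethylases had no common direction, and none passed the test. The mean was higher for 7 and lower for 11 of the 18. Their median was -0.069 on the log2 scale and turned to 0.13 under median centring and to 0.10 without siControl replicate 1. The values of 6 of the 18 (33.3%) did not overlap between the groups, 3 of them higher and 3 lower, against 31.7% of all genes. The plot of fold changes by role shows these genes spread around 0.

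The KDM5 family removes methyl groups from H3K4, the same residue on which LSD1 acts. KDM5A had a log2 signal of 8.38 and 8.54 on the siLSD1 arrays, against 7.86 and 8.02 on the siControl arrays. Both siLSD1 values were thus above both siControl values, and the arrays of a group lay close together. The fold change was 1.43 (log2 0.52, 95% interval 0.051 to 0.98, unadjusted p = 0.0337 in limma). Among the 4 further probe sets above the filter level, 3 were higher, by 0.39, 0.06 and 1.07 on the log2 scale, and 1 was lower, by -0.09. Of these, only that at 1.07 did not overlap between the groups, and its mean signal of 4.123 was barely above the filter level. KDM5B, the paralogue often high in tumours, was at 9.55 and 9.41 in siLSD1 cells and at 9.67 and 9.57 in siControl cells. Its log2 fold change of -0.14 was small and turned to 0.03 under median centring, and its other 3 probe sets had differences of -0.10, -0.29 and -0.08. KDM5C, an X-linked member of the family, had a log2 fold change of -0.12 with overlapping groups. This value turned to 0.19 without siControl replicate 1 and to 0.08 under median centring. The other probe set of KDM5C above the filter level gave -0.40, and its siLSD1 and siControl values did not overlap.

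The KDM2 and KDM7 families combine a JmjC domain with a reader of DNA or histone marks. PHF8, which removes H3K9 and H4K20 methylation and is brought to active promoters by its PHD finger, was at 6.68 and 6.88 on the siLSD1 arrays, against 5.50 and 6.56 on the siControl arrays. The groups did not overlap, but siControl replicate 1 lay far below the other 3 arrays. The 1.68-fold higher mean (log2 0.75, 95% interval -0.094 to 1.59) was reduced to a log2 fold change of 0.22 without that array. KDM2B, a CpG-binding H3K36 demethylase of a variant Polycomb complex, was at 8.56 and 8.52 in siLSD1 cells and at 7.98 and 8.34 in siControl cells. It was 1.30-fold higher (log2 0.38), and again siControl replicate 1 was the lowest array, without which the log2 value was 0.20. PHF2, an H3K9 demethylase, was at 8.21 and 7.99 in siLSD1 cells and at 7.39 and 8.25 in siControl cells, so that the groups overlapped. Its log2 fold change of 0.28 turned to -0.15 without siControl replicate 1. KDM7A had a log2 fold change of -0.29 that turned to 0.17 without siLSD1 replicate 1, and its other probe set above the filter level was higher by 0.19. KDM2A, the paralogue of KDM2B, had a log2 fold change of -0.042, or 0.15 under median centring, and its other probe sets gave -0.26 and 0.06.

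The KDM3 family removes mono- and dimethyl marks from H3K9. KDM3A, which is induced by hypoxia, was at 8.32 and 8.22 on the siLSD1 arrays, against 8.58 and 8.44 on the siControl arrays. It was lower on both siLSD1 arrays, and the difference of -0.24 (log2, 95% interval -0.68 to 0.21) exceeded the gap within either group. Under median centring the difference was only -0.035. KDM3B (-0.11) and JMJD1C (-0.062) differed less and overlapped, and both turned positive under median centring and without siControl replicate 1. The other probe set of KDM3B was lower as well (-0.07), while the other 2 of JMJD1C were higher by 0.04 and 0.03.

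The KDM4 family acts on trimethylated H3K9 and H3K36. KDM4A, KDM4B, KDM4C and KDM4D had log2 fold changes of 0.013, -0.077, 0.29 and 0.21, and the siLSD1 and siControl values of each overlapped. For each of the 4 genes the difference was smaller than the wider of the gaps within groups, and that of KDM4B turned to 0.14 under median centring. The other probe sets gave -0.02 for KDM4A, -0.09, 0.14 and 0.07 for KDM4B and 0.40 for KDM4C. The KDM4C value turned to -0.045 without siControl replicate 1. Of the H3K27 demethylases, KDM6A had a log2 fold change of -0.15 and KDM6B of -0.10, and both turned positive under median centring. The 2 other probe sets of KDM6A gave 0.13 and -0.78, and the 4 others of KDM6B gave -0.18, -0.0019, 0.20 and -0.43. KDM8, at -0.29, had 1 siLSD1 value of 3.79, below the filter level, and turned to 0.16 without that array, siLSD1 replicate 1.

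**Figure D2:**
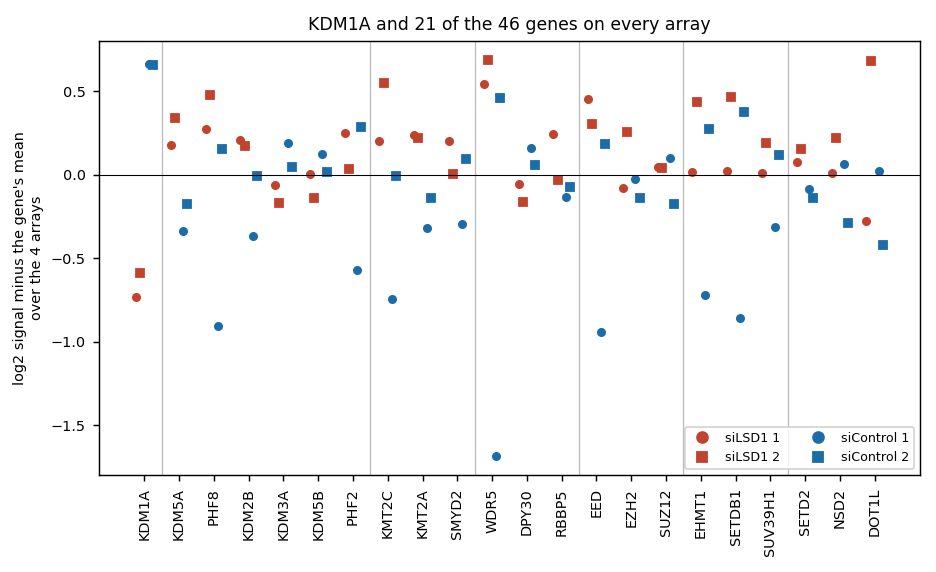
Log2 signal of KDM1A and of 21 of the 46 genes on every array (vertical axis, as the difference from the gene's mean over the 4 arrays), with siLSD1 arrays in red to the left of siControl arrays in blue and grey lines between role groups. KDM1A separates the groups with close replicates, whereas for WDR5, PHF8, EED, KMT2C, SETDB1, EHMT1 and PHF2 the lowest point is siControl replicate 1. The same array is also lowest for KDM5A, KMT2A, KDM2B, SMYD2, RBBP5 and SUV39H1.

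The H3K4 methyltransferases and related SET-domain enzymes included KMT2C and KMT2A, both at an unadjusted p under 0.05 in limma. Among the 10, means were higher in siLSD1 cells for 6 and lower for 4. Their median was 0.051 on the log2 scale, and 0 passed the test over all genes. It was 0.12 without siControl replicate 1, 0.010 without siLSD1 replicate 2, and turned to -0.024 without siControl replicate 2 and to -0.049 with the mean of all probe sets. The groups did not overlap for 6 of the 10, of which 4 were higher and 2 lower, against 31.7% of all genes.

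KMT2C, which with KMT2D places H3K4 monomethylation at enhancers, had a log2 signal of 9.21 and 9.56 on the siLSD1 arrays, against 8.26 and 9.0 on the siControl arrays. Both siLSD1 values were the higher ones. The mean was 1.69-fold higher (log2 0.75, 95% interval 0.16 to 1.35, unadjusted p = 0.0192 in limma). All 3 further probe sets above the filter level had a higher mean too, by 0.59, 0.25 and 0.20 on the log2 scale. In those at 0.25 and 0.20 the siLSD1 and siControl values overlapped. The probe set at 0.59 was at 8.56 and 8.30 in siLSD1 cells and at 7.48 and 8.20 in siControl cells. In this probe set and in the brightest one siControl replicate 1 was the lowest array, and without it the log2 fold change of the gene was 0.38. A probe set that names KMT2C beside BAGE2 and BAGE5 was left out.

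KMT2A, the founding member of the family and a frequent partner in leukaemia fusions, was at 8.86 and 8.84 in siLSD1 cells and at 8.30 and 8.48 in siControl cells. Here the arrays of each group lay close together, and the gene was 1.37-fold higher (log2 0.46, 95% interval 0.031 to 0.88, unadjusted p = 0.0383 in limma). Its log2 fold change stayed between 0.37 and 0.55 when any 1 array was left out. The other probe sets did not follow this direction. Of 5 above the filter level, 1 was higher, by 0.42, and 4 had differences of -0.07, -0.02, -0.37 and -0.53, and the mean of all 11 probe sets of KMT2A gave -0.056.

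SMYD2, which methylates H3K36 and non-histone proteins such as p53, was at 9.84 and 9.65 in siLSD1 cells and at 9.35 and 9.73 in siControl cells. The groups overlapped, and the log2 fold change of 0.21 was 0.011 without siControl replicate 1. Its other probe set was higher by 0.32. KMT2D (0.094) and SETD7 (0.19), an enzyme that adds a single methyl group to H3K4 and to other proteins, were higher on both siLSD1 arrays. Without siLSD1 replicate 2 KMT2D was at 0.019, and without siControl replicate 2 SETD7 was at 0.075. The other probe sets of KMT2D disagreed, at -0.14 and 0.12. KMT2E (-0.16), a family member with little known catalytic activity, and SETD1B (-0.22), the enzyme of a COMPASS complex at CpG promoters, were lower on both siLSD1 arrays, but KMT2E turned to 0.03 under median centring and SETD1B was at -0.061 without siControl replicate 1. The other 2 probe sets of KMT2E gave 0.03 and -0.24. KMT2B (0.0089), SETD1A (-0.049) and SMYD3 (-0.053) differed by less than the gap between control arrays, their groups overlapped, and the negative ones turned positive under median centring.

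COMPASS enzymes need a shared core of WDR5, RBBP5, ASH2L and DPY30, and menin, encoded by MEN1, ties KMT2A and KMT2B to their targets. Means were higher in siLSD1 cells for 3 of these 5 genes and lower for 2. Their median of 0.023 on the log2 scale turned to -0.028 without siControl replicate 2 and to -0.036 without siLSD1 replicate 1. WDR5, the propeller protein that holds the complex together, had the widest difference of all 46 genes. It was at 8.52 and 8.66 on the siLSD1 arrays, against 6.29 and 8.43 on the siControl arrays. One control array was thus far below the other 3, and the control SD was 1.51 (n = 2). The mean was 2.33-fold higher (log2 1.22, 95% interval -0.078 to 2.52, unadjusted p = 0.0622 in limma), and without siControl replicate 1 the log2 fold change was 0.15. Its other probe set was at 6.73 and 6.65 in siLSD1 cells and at 6.73 and 7.05 in siControl cells, a difference of -0.20 in the opposite direction.

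DPY30, the smallest core subunit, was at 10.15 and 10.04 on the siLSD1 arrays, against 10.37 and 10.27 on the siControl arrays. It was lower on both siLSD1 arrays with close replicates, by -0.22 on the log2 scale (95% interval -0.49 to 0.052). The value stayed between -0.28 and -0.165 when any 1 array was left out, but was -0.078 under median centring. The remaining probe sets that name DPY30 also name MEMO1 and were left out. RBBP5 was at 7.10 and 6.82 in siLSD1 cells and at 6.72 and 6.79 in siControl cells, a log2 fold change of 0.21 that was 0.069 without siLSD1 replicate 1. ASH2L (0.023) and MEN1 (-0.11, which turned to 0.094 under median centring) overlapped between the groups.

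PRC2, the complex that methylates H3K27, is built from the enzyme EZH2 or EZH1 with EED and SUZ12. All 4 genes had a higher mean in siLSD1 cells. Their median was 0.15 on the log2 scale, and 0 of 4 passed the test over all genes. It was 0.34 under median centring, and leaving out 1 array gave 0.027 without siControl replicate 2, 0.083 without siLSD1 replicate 2, 0.22 without siControl replicate 1 and 0.26 without siLSD1 replicate 1. EED, which reads trimethylated H3K27 and stimulates the enzyme, was at 9.26 and 9.11 on the siLSD1 arrays, against 7.87 and 8.99 on the siControl arrays. The siControl replicate 1 value was again far below the rest. The 1.69-fold higher mean (log2 0.76, 95% interval 0.0033 to 1.51, unadjusted p = 0.0492 in limma) was 0.19 on the log2 scale without that array, and the other probe set of EED gave -0.13.

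EZH2, the main H3K27 methyltransferase of dividing cells, was at 9.63 and 9.96 in siLSD1 cells and at 9.68 and 9.57 in siControl cells. SUZ12 was at 9.97 and 9.96 in siLSD1 cells and at 10.02 and 9.74 in siControl cells. Both overlapped between the groups, with log2 fold changes of 0.17 (95% interval -0.20 to 0.53) and 0.081 (-0.24 to 0.41). The SUZ12 value turned to -0.056 without siControl replicate 2, and its other probe set above the filter level gave -0.15. The EZH2 value was 0.0011 without siLSD1 replicate 2. EZH1, the enzyme more typical of resting cells, had a log2 fold change of 0.13 with overlapping groups, which turned to -0.090 without siControl replicate 2, and its other 2 probe sets were lower, at -0.33 and -0.25.

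The H3K9 methyltransferases overlapped between siLSD1 and siControl cells in all 5 cases, where 31.7% of all genes did not overlap. Their median log2 fold change was 0.20, and it turned to -0.031 without siControl replicate 1. EHMT1, which pairs with EHMT2 to place dimethylation, was at 8.11 and 8.52 on the siLSD1 arrays, against 7.37 and 8.37 on the siControl arrays. SETDB1, which silences transposable elements with KRAB zinc finger proteins, was at 8.15 and 8.60 on the siLSD1 arrays, against 7.27 and 8.50 on the siControl arrays. In both genes siControl replicate 1 was the single low array, and the log2 fold changes of 0.45 and 0.49 turned to -0.052 and -0.13 without it. The other probe set of SETDB1 above the filter level gave -0.01.

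SUV39H1, an enzyme of pericentric heterochromatin, was at 6.72 and 6.90 in siLSD1 cells and at 6.40 and 6.82 in siControl cells. Its log2 fold change of 0.20 was -0.015 without siControl replicate 1. SUV39H2 (-0.058) and EHMT2 (-0.053) differed by less than the gap between siLSD1 arrays or that between siControl arrays and turned positive under median centring. The other probe set of SUV39H2 above the filter level was higher by 0.53.

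The enzymes of H3K36 and H3K79 had higher means in siLSD1 cells in all 4 cases, with NSD1 close to 0, and 0 of 4 passed the test. Their median was 0.23 on the log2 scale, but 0.11 without siControl replicate 2 and 0.016 with the mean of all probe sets. SETD2, which trimethylates H3K36 in transcribed genes, was at 8.25 and 8.33 on the siLSD1 arrays, against 8.09 and 8.04 on the siControl arrays. The groups did not overlap, and the difference of 0.23 on the log2 scale (95% interval -0.22 to 0.68) exceeded the gap within either group, though both other probe sets were lower, at -0.05 and -0.14. NSD2, which dimethylates H3K36, was at 8.74 and 8.95 in siLSD1 cells and at 8.80 and 8.44 in siControl cells. Its log2 fold change was 0.22 with overlapping groups and 0.047 without siControl replicate 2, and its other 5 probe sets gave -0.03, 0.15, 0.43, 0.02 and 0.12. DOT1L, the H3K79 methyltransferase, which has no SET domain, was at 6.19 and 7.14 in siLSD1 cells and at 6.49 and 6.04 in siControl cells. Only siLSD1 replicate 2 was high, and the log2 fold change of 0.40 turned to -0.080 without it, while the other probe set gave -0.56. NSD1 had a log2 fold change of 0.0051, and its other 3 probe sets gave -0.28, -0.05 and -0.14.

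**Figure D3:**
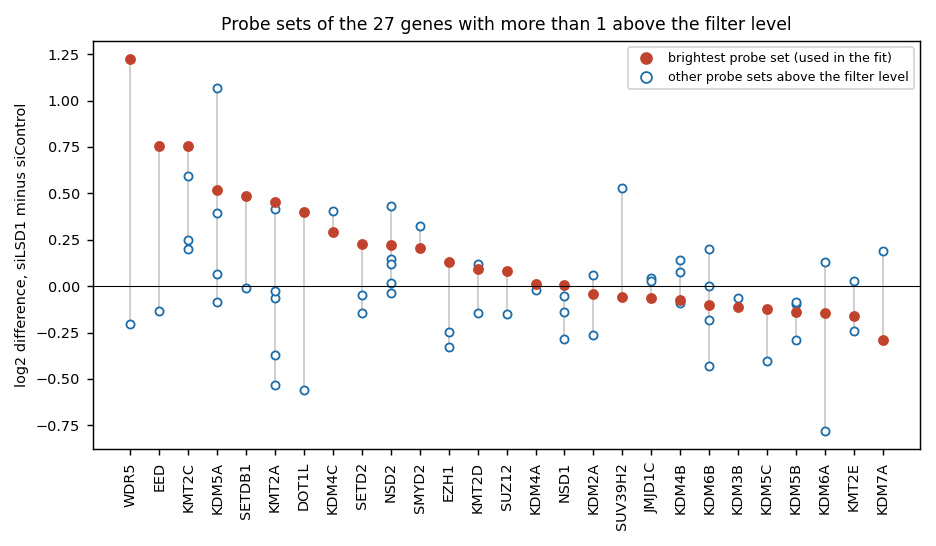
Log2 difference between siLSD1 and siControl means (vertical axis) for each probe set of the 27 genes with more than 1 probe set above the filter level. Red points are the brightest probe sets and open blue points the others, and for 21 of the 27 genes at least 1 open point lies on the other side of 0 from the red one.

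Probe sets of the same gene often differed in direction. For 27 of the 46 genes a second probe set lay above the filter level. Of these 56 further probe sets, 26 (46.4%) had the sign of the brightest one, against 52.9% of 10418 such probe sets over all genes tested. Only for KDM3B, KDM4C, KDM5B, KDM5C, KMT2C and SMYD2 did every probe set above the filter level have the same sign. Of the 4 genes at an unadjusted p under 0.05, KMT2C was the one whose probe sets above the filter level all had the same sign.

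In most of the larger differences the lowest value came from the same control array. All 10 genes with a log2 fold change of 0.3 or more in size were positive, where 59.7% of all genes tested with a difference of this size were. They were WDR5, EED, KMT2C, PHF8, KDM5A, SETDB1, KMT2A, EHMT1, DOT1L and KDM2B. Differences of this size, of either sign, made up 21.7% of the 46 genes, against 26.3% of all genes tested. In 9 of the 10 the lowest value was that of siControl replicate 1, against 43.3% of all genes with a difference of this size. That share was taken over genes of both signs, whereas all 10 here were positive, so the shares are not directly comparable. Without siControl replicate 1, 4 of the 10 stayed at 0.3 or more, namely KMT2C, KDM5A, KMT2A and DOT1L. The gap between the siControl arrays had a median of 0.34 over the 46 genes, whereas that between the siLSD1 arrays was 0.14. Over all genes tested these gaps were 0.19 between the siLSD1 arrays and 0.29 between the siControl arrays.

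The fold changes differed with each control array left out. Without siControl replicate 1, the median over the 46 genes was 0.15 on the log2 scale, against 0.039 over all genes tested. Without siControl replicate 2, it was -0.060, against -0.055 over all genes tested. The log2 fold change of WDR5 was 0.15 without siControl replicate 1 and 2.29 without siControl replicate 2. That of EED was 0.19 and 1.32. Over the settings tried, the adjusted p in limma ran from 0.0427 to 0.99994 for WDR5 and from 0.0483 to 0.99994 for EED. In such a fit the lone control array is assumed to vary like the other group.

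**Figure D4:**
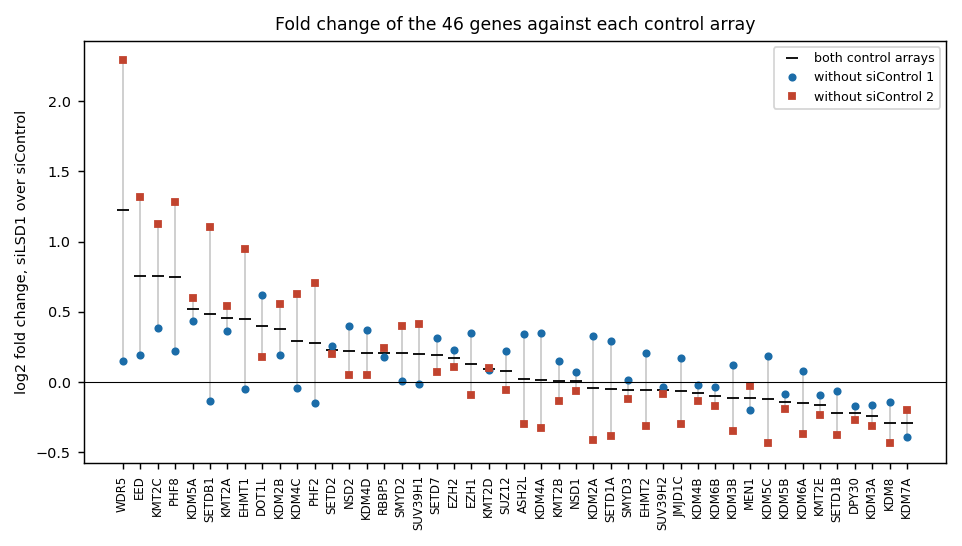
Log2 fold change of each of the 46 genes (vertical axis, siLSD1 over siControl) with both control arrays (dash), without siControl replicate 1 (blue circle) and without siControl replicate 2 (red square). WDR5 moves between 0.15 and 2.29, whereas several genes, among them KDM5A, KMT2A, SETD2, DPY30, KMT2D and RBBP5, stay on one side of 0 with little movement.

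Direction was kept by 18 of the 46 genes under both other scalings of the arrays and in all 4 fits that left out 1 array. Among these were KDM5A, KMT2A, KMT2C and SETD2 on the higher side, and KDM3A, SETD1B and DPY30 on the lower. This count describes the sign only, and none of the 18 passed the threshold in those scalings with all arrays. A gene whose groups do not overlap, as for each gene named here, keeps its sign by construction when 1 array is left out. Median centring raised the values, which favours a positive sign. Under it the lower genes KDM3A, SETD1B and DPY30 were close to 0, at -0.035, -0.015 and -0.078 on the log2 scale. The share over all genes tested was not computed.

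Other genes of lysine methylation gave no call either. Of 52 named and tested genes outside the 46, 0 passed over all genes in limma, 0 had an unadjusted p under 0.05 (against 3.45% of all genes), and the groups did not overlap for 14 (26.9%, against 31.7%). The means were higher in siLSD1 cells for 27 and lower for 25. ASH1L and JMJD7 had no probe set that named them alone and are not analysed here.

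Among 14 other lysine methyltransferases the mean was higher for 9 and lower for 5 (median 0.026 on the log2 scale). KMT5A, the enzyme that adds the first methyl group to H4K20, had a log2 fold change of -0.42 with lower values on both siLSD1 arrays, SETDB2 had -0.70, and SETD6 had 0.38. The groups of SETDB2 and SETD6 overlapped, and without siControl replicate 1 their values were -0.063 and 0.079. Among 9 other JmjC proteins the mean was higher for 3 and lower for 6 (median -0.049). JMJD4 had a log2 fold change of -0.50, the HIF hydroxylase HIF1AN of -0.31 and RIOX2 of 0.16, and the siLSD1 and siControl values of each did not overlap. Without siLSD1 replicate 1, HIF1AN was at -0.055 and RIOX2 at 0.097, and without siLSD1 replicate 2 JMJD4 was at -0.33. With the mean of all probe sets, KMT5A was at -0.033, JMJD4 at -0.064 and HIF1AN at -0.088, and RIOX2 turned to -0.067.

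For 11 accessory subunits of COMPASS complexes the mean was higher in 4 cases and lower in 7 (median -0.018 on the log2 scale). HCFC1, a transcriptional cofactor, had a log2 fold change of 0.34, PAGR1 of -0.20 and BOD1 of -0.13, and the last 2 turned positive under median centring. BOD1 was at -0.033 without siLSD1 replicate 1. For 8 accessory subunits of PRC2 it was higher in 4 cases and lower in 4 (median -0.027). PHF1, a Polycomb-like protein, had a log2 fold change of 0.45, the histone chaperone RBBP4 of -0.25 and AEBP2, whose groups overlapped, of -0.33. Without siControl replicate 1, PHF1 was at 0.20 and RBBP4 at -0.12, and without siLSD1 replicate 1 AEBP2 was at -0.055. For 10 partners and readers of H3K9 methylation it was higher in 7 cases and lower in 3. The median was 0.056, and -0.013 where the deposited scaling was kept. The heterochromatin protein CBX5 had a log2 fold change of 0.68 with overlapping groups, but 0.21 without siLSD1 replicate 1, 0.32 without siControl replicate 1 and 0.086 with the mean of all probe sets. ATF7IP, the cofactor of SETDB1, had 0.43, with higher values on both siLSD1 arrays, but 0.12 with the mean of all probe sets. MPHOSPH8, a subunit of the HUSH silencing complex, had -0.44, which was -0.072 without siControl replicate 1 and turned to 0.17 with the mean of all probe sets.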

How the data were processed

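RNA was measured on 4 arrays, grouped and numbered by their titles. Total RNA was column-purified and biotin-labelled, per the labels' protocols. The authors deposited 1 log2 value for each probe set and array, with software and summary method not given in the sources used here. The base was inferred, since antilogs trimmed by 2% at each end averaged 100.0 on every array.

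Deposited array medians spanned 0.27, so values were quantile normalized. Platform annotation of 2016 gave 41091 of 54675 probe sets a single symbol, and the brightest probe set stood for its gene. Genes averaging under the 40th percentile (4.12) were dropped. The remaining 11865 were fitted with limma 3.58.1 in R 4.3.3 (eBayes with trend, two-sided, 8.22 degrees of freedom, Benjamini-Hochberg adjustment, threshold 0.05), after the fit was tested on simulated data. The smallest p of an exact permutation of 2 against 2 arrays is 0.333, and the number of arrays limits precision.

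Members, role classes, other lists and markers were chosen with earlier results of these data known. Array values are given for KDM1A and the smallest unadjusted p of each class (6 demethylases, otherwise 3 members). Members whose probe sets differ in sign have each one given, and up to 3 genes are named from other lists. The 4 probe sets naming a member beside other genes were left out. Alternatives were other scalings, filters, probe set rules, no variance trend, a replicate block, and leaving out each array.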

Additional observations from a re-analysis of the deposited data

How the results depend on the processing

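The 46 genes kept 0 calls over all genes under the deposited scaling, median centring, both other filters, both other probe set rules, no variance trend and the replicate block. Leaving out 1 array gave 0 to 2 calls among them and 0 to 83 over all genes, the highest of both without siControl replicate 2. The number of the 46 at an unadjusted p under 0.05 was 0 with the mean of all probe sets, 1 without a variance trend and 0 to 11 when 1 array was left out. Over all genes tested, the share at this level was 3.69% with the mean of all probe sets and 3.57% without a variance trend. This share also moved when 1 array was left out, and it too was highest without siControl replicate 2. The swing in the count is therefore not particular to the 46. On the log2 scale, the median over the 46 was 0.22 under median centring and between -0.060 and 0.15 when 1 array was left out. With the mean of all probe sets it was -0.049 over 43 genes, since KDM8, PHF8 and KMT2B were then not tested. Groups did not overlap for 29 probe sets when each was fitted by itself. With 1 array left out they did not overlap for 25 to 38 genes, where fewer arrays make overlap rarer by construction. The shares over all genes or probe sets in these settings are not given, so these counts cannot be placed against a background. KMT2A was -0.056 with the mean of all probe sets. Median centring turned the sign of 14 of the 46 genes and the mean of all probe sets that of 7 of 43.

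The KDM1A log2 fold change lay between -1.39 and -1.25 when 1 array was left out. Without siControl replicate 2 it passed the threshold (limma adjusted p = 0.0474). With the replicate number as a block it was -1.32 and passed (limma adjusted p = 0.0194, range over the alternatives 0.0194 to 0.998), with 13 genes called in all and 0 of the 46. The labels give no pairing, and deviations of same-numbered arrays correlated at only 0.052. The number of arrays limits what could be detected, and the cause of these changes was not tested.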
